A study of Mus musculus with 6 samples.

Results

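Transcript levels of 10 genes of the actin machinery that a mouse oocyte uses to divide asymmetrically were examined in GV-stage fully-grown oocytes (FGOs) of WT and Lsm14b-KO mice. The members were taken by gene symbol from a deposited table of 24255 genes and were Actb, Cfl1, Fmn2, Spire1, Spire2, Actr2, Actr3, Arpc2, Arpc3 and Tmod3. All 10 were found, and the 9 that had 1 FPKM or more in any library were tested, which left out Spire2. FPKM is the number of sequenced fragments per kilobase of transcript, scaled to the mapped fragments of the library, so it allows levels of genes of different length to be compared.

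The study made 3 RNA-Seq libraries from WT and 3 from Lsm14b-KO females, each from 20 oocytes. The mutant mice were homozygous for Lsm14b tm1a, a constitutive knockout-first allele with an inserted reporter, and both genotypes were kept on a C57BL/6J background. All females had been primed with PMSG at 5 IU and were killed 46 h later; their age is not given in the sources used here. Whether the 3 libraries of a genotype came from separate animals is not stated, so the p-values may measure only technical spread.

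Lsm14b encodes an RNA-binding protein of the oocyte cytoplasm, and its level served as a check of the labels. It stood at 2.77, 3.98 and 1.72 FPKM in WT replicates 1 to 3, was listed at 0 in Lsm14b-KO replicates 1 and 2 and stood at 0.10 FPKM in replicate 3. The difference was −1.85 on the log2(FPKM + 1) scale (SE 0.25, limma adjusted p = 0.0038). The 12 oocyte marker genes were present in every library, with summed levels of 44000 to 55200 FPKM in WT and 28500 to 71000 FPKM in Lsm14b-KO. Dppa3 made up 68.2% to 89.6% of that sum, and without it the range was 7500 to 9400 FPKM in WT and 7380 to 9050 FPKM in Lsm14b-KO. Of these markers only Nobox was called, higher in Lsm14b-KO by 2.25 (limma adjusted p = 0.0064). Nobox, Gdf9, Bmp15, Zp1, Zp2, Zp3, Nlrp5 and Zar1 were highest in Lsm14b-KO replicate 2, as Actb was. The remaining markers, Oosp1, Dppa3, Npm2 and Figla, were lowest in that library. Of 12 cumulus and granulosa markers, 4 (Amh, Foxl2, Inhba and Lhcgr) were listed at 0 in all libraries. The sum was 9.68 to 13.5 FPKM in WT and 6.14 to 10.0 FPKM in Lsm14b-KO. Cyp19a1 was the largest part of that sum and was called lower in Lsm14b-KO (log2 difference −0.98, limma adjusted p = 0.0426). Without it the range was 1.25 to 2.08 FPKM in WT and 3.13 to 4.25 FPKM in Lsm14b-KO. Fshr stood at 1.68, 0.53 and 0.35 FPKM in WT and at 2.08, 1.91 and 1.82 FPKM in Lsm14b-KO (limma adjusted p = 0.0923). Kitl, not tested, was also higher in each Lsm14b-KO library than in any WT library, whereas the groups overlapped for Inha and Nr5a2. All 7 red blood cell markers found were listed at 0 in every library, 5 of 7 leukocyte markers were (sum at most 0.776 FPKM), and 6 of 8 theca and stroma markers were (sum 0.174 to 0.397 FPKM). The Lsm14b-KO libraries were the deeper ones: relative to WT replicate 1, depth was 1.03 and 1.14 in the remaining WT samples and 1.33, 1.95 and 2.17 in replicates 1 to 3 of Lsm14b-KO. Lsm14b-KO replicate 1 lay closer to the WT libraries (Pearson r of log2 values 0.952 to 0.954) than to Lsm14b-KO replicate 2 (0.917), but closest to Lsm14b-KO replicate 3 (0.960). Replicates 2 and 3 correlated at 0.974.

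In the oocyte, actin filaments move the meiotic spindle from the centre to the cortex, which makes the division unequal and leaves a small polar body beside a large egg. The straight filaments of the cytoplasmic mesh are nucleated by the formin FMN2 together with SPIRE proteins, whereas the branched filaments of the cortex are nucleated by the Arp2/3 complex. Cofilin severs filaments and returns monomers, tropomodulin caps the slow-growing ends, and beta-actin is one of the monomers from which the filaments are built. GV-stage FGOs are transcriptionally quiet and carry a store of maternal mRNA, and the libraries hold the part of it that Smart-seq2 captured. Smart-seq2 primes on poly(A) tails, so a difference in tail length cannot be told apart here from a difference in the amount of a transcript. FPKM is relative to the RNA of the library, so the amount of a transcript per oocyte was not measured, and fewer contributing cells cannot be told apart from less RNA per cell.

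Among the 9 tested members, Actb rose in Lsm14b-KO FGOs, and no other member passed the threshold of an adjusted p under 0.05. Of all 6398 tested genes 21.6% were called (6.38% higher and 15.2% lower in Lsm14b-KO), so 1 call among 9 members is not a result about the group. For the nucleators Fmn2 and Spire1 and the Arp2/3 subunits among the members the groups overlapped, and for several of them the spread of the libraries was wide. In some alternatives Arpc2, Spire1 or Arpc3 passed the threshold, as given below. The groups did not overlap for 2 members, Actb and Cfl1, against 45.0% of all tested genes. Of the 9 log2 differences 5 were positive and 4 negative, with a median of 0.23, beside −0.08 over all tested genes. An unadjusted p under 0.05 was reached by 2 members and by 2518 genes in all.

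**Figure D1:**
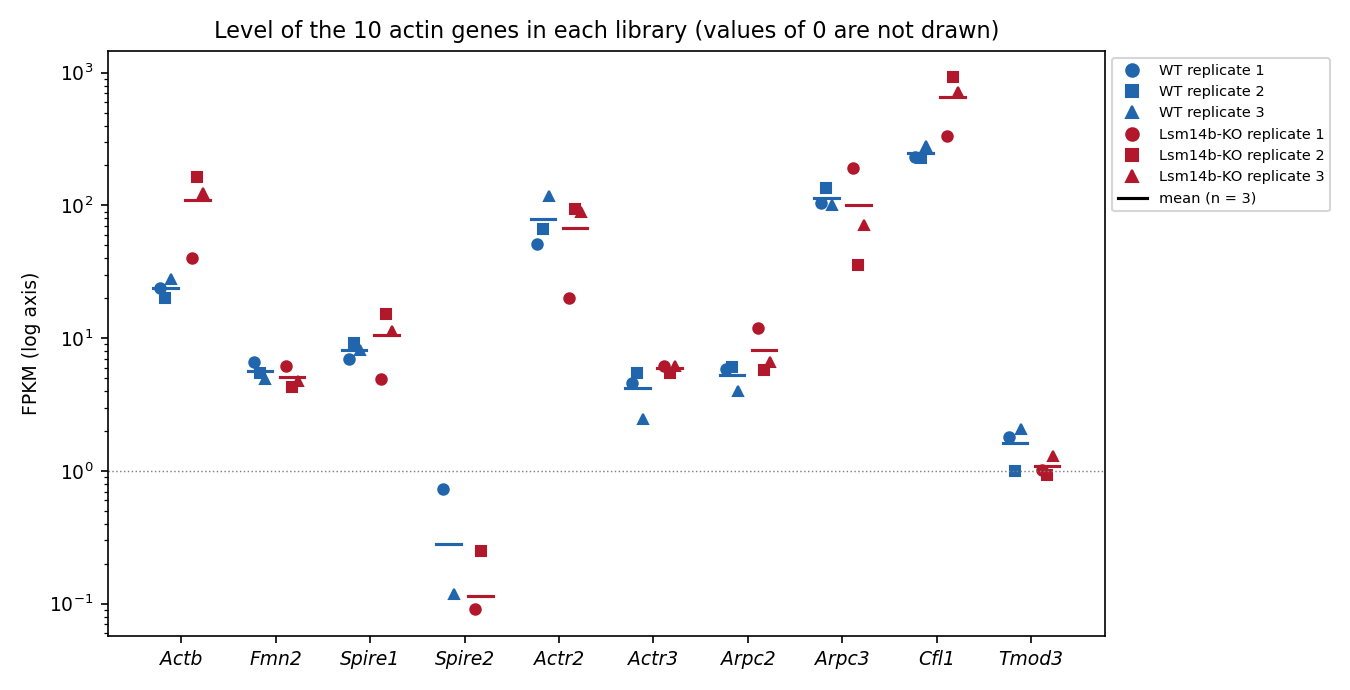
FPKM of the 10 genes on a log axis, with 1 point per library (blue, WT; red, Lsm14b-KO; symbols give the replicate number), a bar for the mean of 3 libraries, and a dotted line at 1 FPKM. The red Actb and Cfl1 points all lie above the blue ones, with Lsm14b-KO replicate 1 nearest to WT; the points of Spire1, Actr2 and Arpc3 interleave.

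Actb encodes beta-actin, a non-muscle actin (GRCm38 chr5:142903115-142906754, minus strand). In WT its level was 23.9, 20.2 and 28.1 FPKM, and in replicates 1 to 3 of Lsm14b-KO it was 40.0, 162.5 and 125.1 FPKM. Every Lsm14b-KO library was above every WT library, but replicate 1 lay far below the other two. The means were 24.1 ± 3.94 FPKM in WT and 109 ± 62.8 FPKM in Lsm14b-KO (SD, n = 3 each). On the log2(FPKM + 1) scale the difference was 1.93 (SE 0.51, 95% interval 0.75 to 3.10), a 3.80-fold rise with a limma adjusted p of 0.0338. By rank among the tested genes, Actb stood at percentiles 78.4 to 81.1 in WT and at 85.1, 94.5 and 92.5 in replicates 1 to 3 of Lsm14b-KO.

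The rise of Actb kept its direction in all 14 alternative analyses (1.53 to 2.61 on the log2 scale), but with 3 libraries per genotype its call rested on each of 5 libraries. The limma adjusted p became 0.110, 0.115 and 0.0866 without WT replicates 1, 2 and 3, and 0.0653 and 0.131 on leaving out Lsm14b-KO replicates 2 and 3. Leaving out replicate 1 instead gave a difference of 2.53 (limma adjusted p = 0.000114). When genes of low level were kept in the test, the adjusted p was 0.081.

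The gamma-actin gene Actg1, the other cytoplasmic actin and a gene of the actin list, also rose. It was found at 1.86, 1.08 and 2.25 FPKM in WT and 3.02, 15.0 and 7.10 FPKM in Lsm14b-KO, a difference of 1.58 on the log2 scale (limma adjusted p = 0.0462). The order of the libraries resembled that of Actb: Lsm14b-KO replicate 2 was the highest, replicate 3 followed, and replicate 1 was close to WT. Within each library Actb made up nearly all of the summed level of both genes, with a share of 92.8%, 94.9% and 92.6% in WT and 93.0%, 91.5% and 94.6% in Lsm14b-KO. The groups overlapped for this share. A common factor for all genes of a library, as in TPM scaling, leaves the share unchanged, whereas quantile normalization and the length correction can move it. It was chosen for description after the values had been seen, as were the other ratios between genes given here.

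The coding sequences of both actins are alike, which bears on whether their reads can be told apart, and the first 60 coding bases show how they differ. They were read from GENCODE transcripts of GRCm38, 5′ to 3′, and capitals mark the bases at which the 2 genes differ.
Actb: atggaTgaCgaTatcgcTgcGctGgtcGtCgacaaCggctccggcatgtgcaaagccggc
Actg1: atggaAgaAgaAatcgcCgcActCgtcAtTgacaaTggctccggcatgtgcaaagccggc
Over the 1125 coding bases, the genes differed at 128 positions (88.6% identity), 9 of them in these 60. The longest stretch without a difference was 62 bases, shorter than a single read of 150 bases, so a full-length read inside the coding sequence holds at least 1 base that separates them. No other transcript matched Actb at 95% identity or more over at least 200 bases, but Actg1 had 6 such pseudogene copies, and its level is the less certain of the pair.

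Cfl1 encodes cofilin-1, which severs and depolymerises actin filaments (GRCm38 chr19:5490455-5495201, plus strand). It was the most abundant member, at 233, 228 and 280 FPKM in WT and 336, 923 and 721 FPKM in Lsm14b-KO replicates 1 to 3. The groups did not overlap, and the 6 libraries stood in the same order as for Actb. The means were 247 ± 28.6 FPKM in WT and 660.0 ± 298 FPKM in Lsm14b-KO (SD, n = 3 each). The log2 difference was 1.30 (SE 0.41, 95% interval 0.35 to 2.25), and the limma adjusted p of 0.0565 missed the threshold. Leaving out Lsm14b-KO replicate 1 gave 1.73 with an adjusted p of 0.000456, and 5 further alternatives also brought it past the threshold, with adjusted p from 0.0357 to 0.0455. Over all 14 alternatives the difference stayed positive, from 1.00 to 2.09.

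Besides Cfl1, oocytes use the muscle-type cofilin gene Cfl2 and destrin, Dstn, which serve the same reaction. Cfl2 stood at 684, 664 and 554 FPKM in WT and at 639, 222 and 337 FPKM in Lsm14b-KO, a log2 difference of −0.80 (limma adjusted p = 0.183). Dstn stood at 68.4, 65.4 and 63.8 FPKM in WT and at 151, 77.1 and 108 FPKM in Lsm14b-KO, a difference of 0.71 (limma adjusted p = 0.143); it was named after its values had been seen. Cfl2 was thus the main family transcript in every WT library and in Lsm14b-KO replicate 1, and Cfl1 was the main one in Lsm14b-KO replicates 2 and 3. The ratio of Cfl1 to Cfl2 within a library was 0.341, 0.343 and 0.505 in WT and 0.526, 4.16 and 2.14 in Lsm14b-KO, with no overlap but with Lsm14b-KO replicate 1 beside WT replicate 3. The share of Cfl1 in the summed family was 23.6%, 23.8% and 31.2% in WT and 29.8%, 75.5% and 61.8% in Lsm14b-KO, and here the groups overlapped. On the deposited scale the family sum was 898 to 986 FPKM in WT and 1130 to 1220 FPKM in Lsm14b-KO. Some scalings changed the picture of the parts: Cfl2 differed by −0.11 under TPM scaling and by −0.02 under quantile normalization. Dstn passed the threshold under both (1.39, limma adjusted p = 0.00729, and 1.29, adjusted p = 0.0133). After the length correction Cfl2 stayed at −0.80 (limma adjusted p = 0.175) and Dstn gave 0.90 (adjusted p = 0.0540). Leaving out Lsm14b-KO replicate 1 brought Cfl2 past the threshold (−1.20, limma adjusted p = 0.00431).

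**Figure D2:**
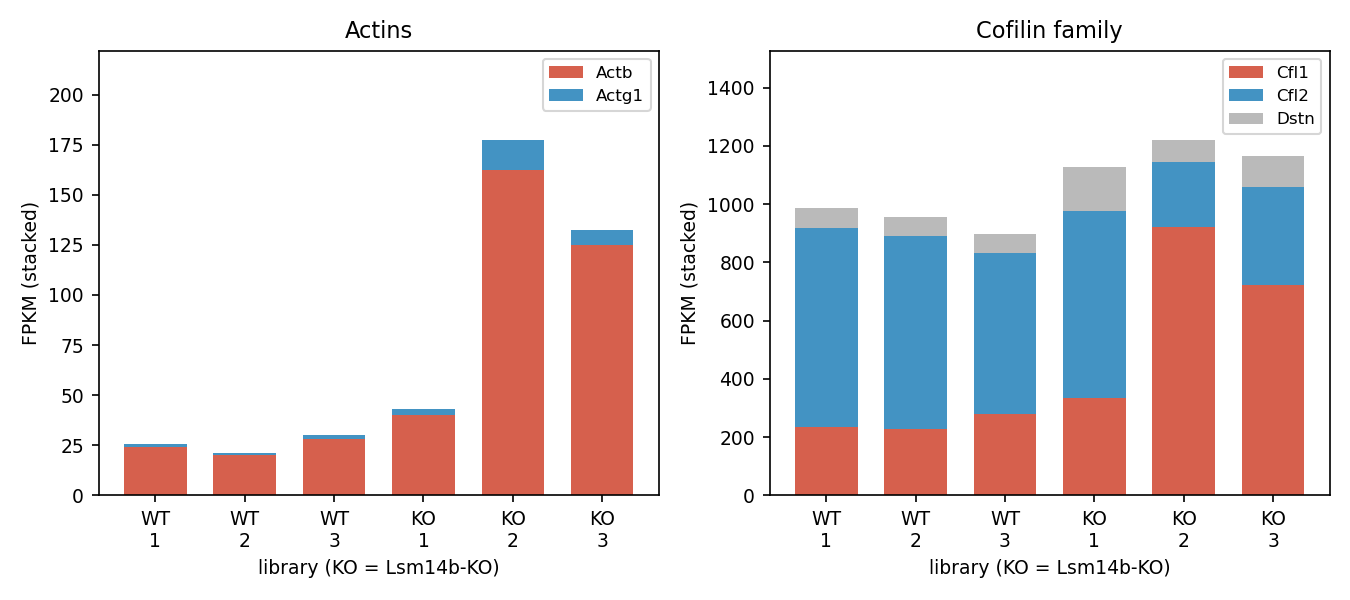
Stacked bars of FPKM in each library for the cytoplasmic actins (left, Actb and Actg1) and the cofilin family (right, Cfl1, Cfl2 and Dstn). Actb fills at least 91.5% of the actin bar in every library, whereas the Cfl1 part of the cofilin bar is 23.6% to 31.2% in WT and 29.8%, 75.5% and 61.8% in Lsm14b-KO replicates 1 to 3.

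The start of the 2 cofilin coding sequences is shown because the ratio of Cfl1 to Cfl2 rests on telling their reads apart. Both are from GENCODE transcripts of GRCm38, 5′ to 3′, with capitals at the bases that differ between them.
Cfl1: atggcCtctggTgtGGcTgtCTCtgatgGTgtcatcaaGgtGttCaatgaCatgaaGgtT
Cfl2: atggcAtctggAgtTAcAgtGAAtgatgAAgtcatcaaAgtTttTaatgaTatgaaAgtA
Of the 498 coding bases 142 differed (71.5% identity), 16 of them in the 60 shown, and no shared stretch was longer than 13 bases. Cfl1 had 1 pseudogene copy of at least 95% identity, Gm6180, and its locus overlaps Snx32 on the other strand, with which it also shares transcript sequence. The strand setting of the counting is not stated, so reads of the overlapping genes cannot be told apart.

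Fmn2 encodes the formin that nucleates the straight filaments around the spindle of the oocyte (GRCm38 chr1:174501825-174822729, plus strand). It was found at 6.62, 5.50 and 4.94 FPKM in WT and 6.22, 4.32 and 4.73 FPKM in Lsm14b-KO. The groups overlapped almost wholly, and Fmn2 held a like rank in every library, between percentiles 60.1 and 66.1 of the tested genes. The means were 5.69 ± 0.86 FPKM in WT and 5.09 ± 1.00 FPKM in Lsm14b-KO (SD, n = 3 each). With a log2 difference of −0.14 (SE 0.23, 95% interval −0.66 to 0.38, limma adjusted p = 0.654), changes of more than 0.66 in either direction on this scale lie outside the interval. TPM scaling turned the sign, to 0.45, and quantile normalization brought it to 0.03. The genes whose levels followed Fmn2 most closely over the 6 libraries, among those with a mean of at least 5 FPKM, were Gm17821 (r = 0.971), Sfr1 (r = 0.970) and Snapc3 (r = 0.966); the libraries share genotype and depth differences, so these values are a description.

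Spire1 and Spire2 encode actin nucleators that cooperate with FMN2 on vesicles and at the cortex. Spire1 (GRCm38 chr18:67488209-67610790, minus strand) was at 6.98, 9.27 and 8.15 FPKM in WT and at 4.97, 15.2 and 11.4 FPKM in Lsm14b-KO. The Lsm14b-KO libraries spanned the whole WT range, replicate 1 being the lowest and replicate 2 the highest of the 6. The means were 8.13 ± 1.14 FPKM in WT and 10.5 ± 5.18 FPKM in Lsm14b-KO (SD, n = 3 each), with a log2 difference of 0.23 (SE 0.38, 95% interval −0.64 to 1.09, limma adjusted p = 0.664). Leaving out Lsm14b-KO replicate 1 gave 0.64 with an adjusted p of 0.0466, and leaving out replicate 2 turned the sign, to −0.08.

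Spire2 (GRCm38 chr8:123332713-123369515, plus strand) was close to absent from the table: 0.729 FPKM in WT replicate 1, 0.118 in WT replicate 3, 0.0912 and 0.249 in Lsm14b-KO replicates 1 and 2, and listed at 0 in WT replicate 2 and Lsm14b-KO replicate 3. No library reached 1 FPKM and no test was made. A value of 0 in a table without counts can also be a failed estimate. Spire1 was thus the main Spire transcript in all 6 libraries, and its ratio to Fmn2 was 1.05, 1.69 and 1.65 in WT and 0.798, 3.53 and 2.40 in Lsm14b-KO, with overlapping groups.

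The Arp2/3 complex nucleates branched filaments. Actr2 and Actr3 encode its actin-related subunits, and Arpc2 and Arpc3 encode other subunits of the complex. Their transcripts were at very different levels in the FGOs. Over the 6 libraries Actr2 and Arpc3 ranged from 19.9 to 193.0 FPKM, and Actr3 and Arpc2 from 2.45 to 11.9 FPKM. In WT the mean of Actr2 was 18.8 times that of Actr3, and the mean of Arpc3 was 21.2 times that of Arpc2.

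Actr2 (GRCm38 chr11:20062304-20112913, minus strand) stood at 51.1, 66.3 and 118.1 FPKM in WT and at 19.9, 94.8 and 89.1 FPKM in Lsm14b-KO. Replicate 1 of Lsm14b-KO was the lowest library and WT replicate 3 the highest, and the groups overlapped. The means were 78.5 ± 35.1 FPKM and 68.0 ± 41.7 FPKM (SD, n = 3 each), and the log2 difference was −0.40 with a wide 95% interval of −1.83 to 1.03 (SE 0.62, limma adjusted p = 0.636). The sign turned without Lsm14b-KO replicate 1 (0.31), with TPM scaling (0.28) and with quantile normalization (0.22).

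Actr3 (GRCm38 chr1:125392905-125435727, minus strand) stood at 4.62, 5.48 and 2.45 FPKM in WT and at 6.19, 5.47 and 6.16 FPKM in Lsm14b-KO. The Lsm14b-KO libraries lay close together, and 1 of them was just under the highest WT library. The means were 4.18 ± 1.56 FPKM and 5.94 ± 0.41 FPKM (SD, n = 3 each), with a log2 difference of 0.47 (SE 0.27, 95% interval −0.16 to 1.10, limma adjusted p = 0.228). It was positive in all 14 alternatives, from 0.20 to 1.06, and was called in none, the lowest adjusted p being 0.0504.

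Arpc2 (GRCm38 chr1:74236084-74268209, plus strand) stood at 5.87, 6.10 and 4.02 FPKM in WT and at 11.9, 5.73 and 6.66 FPKM in Lsm14b-KO. Replicate 1 of Lsm14b-KO was the highest library, and replicate 2 lay within the WT range. The means were 5.33 ± 1.14 FPKM and 8.09 ± 3.32 FPKM (SD, n = 3 each), with a log2 difference of 0.48 (SE 0.30, 95% interval −0.22 to 1.18, limma adjusted p = 0.262). It passed the threshold under TPM scaling (1.08, adjusted p = 0.0281) and after the correction for transcript length (0.87, adjusted p = 0.0462).

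Arpc3 (GRCm38 chr5:122391878-122414184, plus strand) stood at 103.5, 135.7 and 100.5 FPKM in WT and at 193.0, 35.3 and 71.5 FPKM in Lsm14b-KO. The WT libraries were close together, and the Lsm14b-KO libraries lay on both sides of them, replicate 1 above and replicates 2 and 3 below. The means were 113 ± 19.5 FPKM and 99.9 ± 82.6 FPKM (SD, n = 3 each), with a log2 difference of −0.50 (SE 0.57, 95% interval −1.81 to 0.81, limma adjusted p = 0.519). Leaving out Lsm14b-KO replicate 1 gave −1.14 (limma adjusted p = 0.0175), and leaving out replicate 2 turned the sign, to 0.07. TPM scaling (0.18), quantile normalization (0.06) and the length correction (0.13) turned it as well.

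The ratio of Arpc3 to Arpc2 within a library was 17.6, 22.2 and 25.0 in WT and 16.2, 6.17 and 10.7 in Lsm14b-KO, so the groups did not overlap, although Lsm14b-KO replicate 1 was beside WT replicate 1. The ratio of Actr2 to Actr3 was 11.1, 12.1 and 48.2 in WT and 3.22, 17.3 and 14.5 in Lsm14b-KO, and the groups overlapped. Near-identical pseudogene copies could take or lend reads: 1 was found for Actr2, 2 for Actr3, 1 for Arpc2 and none for Arpc3.

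The other subunits widened the range of levels. Arpc5l, which encodes a variant of the ARPC5 subunit, was the most abundant at 324, 307 and 274 FPKM in WT, a mean of 302 ± 25.3 FPKM (SD, n = 3) and 56.6 times that of Arpc2. It fell to 157, 145 and 164 FPKM in Lsm14b-KO, a log2 difference of −0.95 (SE 0.27, limma adjusted p = 0.0422), with groups that did not overlap and Lsm14b-KO libraries, replicate 1 included, that lay close together. The call depended on the scaling: the difference was −0.26 under TPM scaling (limma adjusted p = 0.446), −0.19 under quantile normalization (adjusted p = 0.593) and −0.52 after the length correction (adjusted p = 0.135). Its paralog Arpc5 stood at 1.08, 2.44 and 1.35 FPKM in WT and at 3.13, 3.18 and 3.12 FPKM in Lsm14b-KO, a difference of 0.69 (limma adjusted p = 0.0653), also without overlap, and it passed the threshold under TPM scaling (1.19, adjusted p = 0.0355) and after the length correction (0.89, adjusted p = 0.0332). Below them, the WT means were 0.80 FPKM for Arpc1a, 0.41 FPKM for Arpc4 and 0.38 FPKM for Arpc1b, and Actr3b was listed at 0 in 4 of the 6 libraries. In descending order the WT means ran Arpc5l, Arpc3, Actr2, Arpc2, Actr3 and Arpc5; Arpc3 and Actr2 were neighbours whose WT values overlapped, as were Arpc2 and Actr3. Levels of mRNA do not give the amounts of the subunit proteins.

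**Figure D3:**
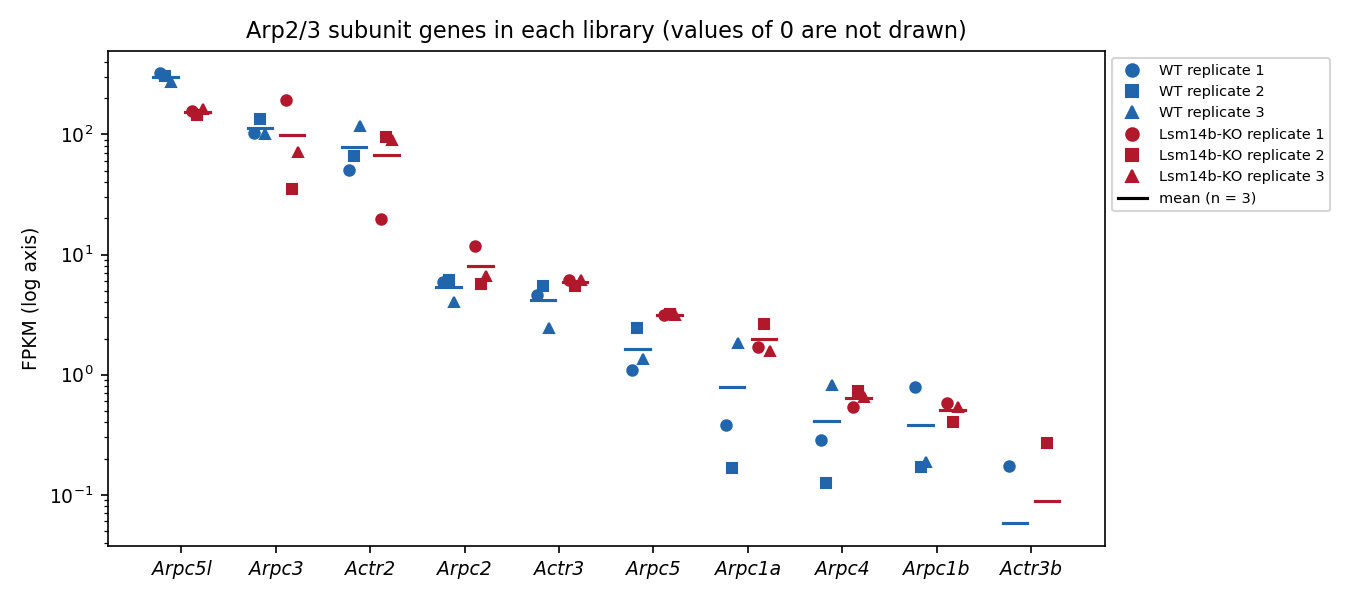
FPKM of 10 Arp2/3 subunit genes on a log axis, ordered by WT mean, with 1 point per library (blue, WT; red, Lsm14b-KO) and a bar for the mean of 3 libraries. Arpc5l, Arpc3 and Actr2 stand apart from the rest, and for Arpc5l the red points at 145 to 164 FPKM lie below the blue ones at 274 to 324 FPKM.

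Tmod3 encodes tropomodulin-3, which caps the slow-growing end of actin filaments (GRCm38 chr9:75497707-75559657, minus strand). It was the lowest of the tested members, at 1.82, 0.99 and 2.06 FPKM in WT and 1.03, 0.93 and 1.29 FPKM in Lsm14b-KO. The lowest WT library lay among the Lsm14b-KO libraries. The means were 1.62 ± 0.56 FPKM and 1.08 ± 0.19 FPKM (SD, n = 3 each), with a log2 difference of −0.31 (SE 0.22, 95% interval −0.83 to 0.20, limma adjusted p = 0.316). At this level the added 1 FPKM shrinks a difference, and TPM scaling turned its sign, to 0.09. The loci of Tmod3, Arpc3 and Spire2 each overlap 1 other gene on the same strand and that of Spire1 overlaps 1 on the other strand, and reads in those overlaps cannot be assigned with certainty.

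**Figure D4:**
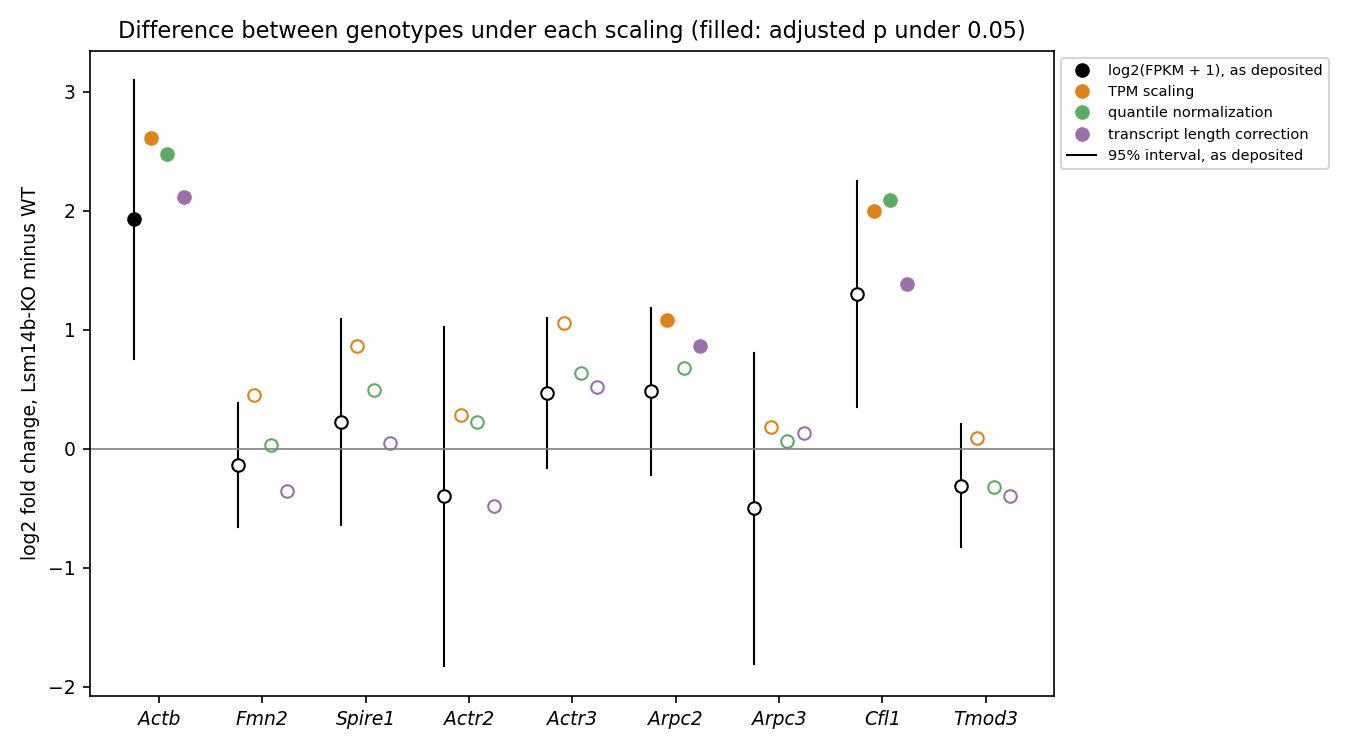
Log2 difference of Lsm14b-KO minus WT for the 9 tested genes, on the FPKM scale as deposited (black, with the 95% interval) and under 3 other scalings; filled points have an adjusted p under 0.05. Actb is filled under each of the 4 scalings, from 1.93 to 2.61, Cfl1 under the 3 others, and the points of Fmn2, Actr2, Arpc3 and Tmod3 lie on both sides of 0.

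The scaling moved the median of all tested genes, and single genes by unequal amounts. That median log2 difference of the tested genes was −0.08 as deposited, 0.40 under TPM scaling, 0.07 under quantile normalization and 0.09 after the length correction, and the share of called genes that were higher in Lsm14b-KO was 29.5%, 63.2%, 42.4% and 43.0% in that order. Relative to the medians of the 3 other scalings, Actb was higher by 2.21, 2.41 and 2.02 and Cfl1 by 1.59, 2.02 and 1.29. Arpc2 and Actr3 were above the median under each of the 4 scalings, by 0.55 to 0.77 and by 0.42 to 0.66. Tmod3 was below it under each, by −0.49 to −0.24, and Fmn2, Spire1, Actr2 and Arpc3 changed side with the scaling.

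The members did not vary as one group over the 6 libraries. The closest pair was Actb and Cfl1 (Pearson r = 0.998 of log2 values over 6 libraries). Fmn2 was nearest to Arpc3 (r = 0.778), Spire1 to Actr2 (r = 0.772), Actr3 to Arpc2 (r = 0.739) and Tmod3 to Actr2 (r = 0.325). Actb and Cfl1 were high in Lsm14b-KO replicates 2 and 3, Arpc3 and Arpc2 were highest in Lsm14b-KO replicate 1, and Actr2 was lowest there. The libraries also differ in depth, and its part in these patterns was not tested.

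Profilin-1, Pfn1, which delivers monomers to formins, followed Actb at r = 0.985 and was named after its values had been seen. It stood at 18.6, 22.6 and 30.6 FPKM in WT and at 32.2, 171 and 155 FPKM in Lsm14b-KO, a log2 difference of 1.98 whose limma adjusted p of 0.0543 missed the threshold; under the 3 other scalings it was 2.58 to 2.66, with adjusted p from 0.0422 to 0.0459. Its ratio to Actb within a library was 0.778, 1.12 and 1.09 in WT and 0.805, 1.05 and 1.24 in Lsm14b-KO, with overlapping groups. The ratio of Cfl1 to Actb, by contrast, was 9.74, 11.3 and 9.95 in WT and 8.41, 5.68 and 5.76 in Lsm14b-KO, so that Cfl1 was lower relative to Actb in each Lsm14b-KO library than in any WT library.

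Around the members, 97 further genes of the actin pathway were read from the same fit: actins, Arp2/3 subunits, activators and inhibitors of Arp2/3, formins, monomer-binding and disassembly factors, capping proteins and tropomyosins, and myosins and cortical factors. Of these, 11 were listed at 0 in all libraries and 44 were tested. The threshold was passed by 8 of the 44 (18.2%), 5 higher and 3 lower in Lsm14b-KO, which is near the 21.6% of all tested genes and is not a result about the pathway. The groups did not overlap for 21 of the 44, beside 45.0% of all tested genes, and the median log2 difference was 0.41, beside −0.08. All 8 kept their direction in each alternative that could be fitted, but 0 of the 8 were called without any 1 of WT replicates 1, 2 and 3 or Lsm14b-KO replicate 3, and Wasl alone on leaving out Lsm14b-KO replicate 2. In the fit that dropped Lsm14b-KO replicate 1, 7 of the 8 were called, all but Add1. That fit called 2952 genes in all, beside 1383 as reported. The fits that left out a library and called 0 of the 8 called only 321 to 537 genes in all. These gains and losses thus went with the calls over the whole table and are not a result about the pathway. The calls also moved with the scaling: under TPM scaling Actg1, Wasl, Wdr1, Add1 and Myo10 were called and under quantile normalization Actg1, Wasl and Myo10, so none of the 3 lower genes was called under either. Of the 44 tested genes 4 reached 1 FPKM in Lsm14b-KO alone, among them the called Wdr1 and Add1, and such a gene could enter the test only by being high there.

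Upstream of Arp2/3, 1 of 8 tested genes was called. Wasl, which encodes N-WASP, an activator of the complex, rose from 4.45, 4.50 and 4.20 FPKM in WT to 8.01, 15.1 and 10.7 FPKM in Lsm14b-KO (log2 difference 1.15, limma adjusted p = 0.0220). The WT values were nearly equal and the lowest Lsm14b-KO value was well above them. Cdc42, a small GTPase that activates N-WASP, stood at 76.3, 85.8 and 96.7 FPKM in WT and at 131, 156 and 135 FPKM in Lsm14b-KO, a difference of 0.70 that missed the threshold (limma adjusted p = 0.0984) although the groups did not overlap; it passed under TPM scaling (1.39, adjusted p = 0.0269), quantile normalization (1.35, adjusted p = 0.0267) and the length correction (0.84, adjusted p = 0.0373). Brk1, a subunit of the WAVE activator complex, gave −0.49 (limma adjusted p = 0.219), and its sign turned under 3 scalings.

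Among the formins besides Fmn2, 3 were tested and none was called by limma. Of the 2 with the highest mean, Fhod3 gave 0.34 (adjusted p = 0.224) and Daam1 gave 0.33 (adjusted p = 0.347). The groups did not overlap for Fhod3, as for 45.0% of all tested genes. Fhod3 passed the threshold under TPM scaling (0.91, limma adjusted p = 0.0468). It did not under quantile normalization (0.47, adjusted p = 0.121) or after the length correction (0.16, adjusted p = 0.61). Of the 3 tested actins other than Actb, Actg1 was called, and the nuclear actin-related gene Actl6a gave −0.38 (limma adjusted p = 0.247).

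In the monomer-binding and disassembly list, 1 of 9 tested genes was called. Wdr1, which encodes the cofilin cofactor AIP1, rose from 0.96, 0.59 and 0.84 FPKM to 1.52, 1.92 and 2.87 FPKM (log2 difference 0.77, limma adjusted p = 0.0449). No WT library reached 1 FPKM, so Wdr1 was tested only through its Lsm14b-KO values, and its direction was in part set by the filter. The thymosin gene Tmsb10, whose product holds actin monomers, was by far the most abundant gene of the list at 9055, 8918 and 8253 FPKM in WT and 12830, 5263 and 9454 FPKM in Lsm14b-KO. Its difference of −0.02 (limma adjusted p = 0.968) came from Lsm14b-KO libraries on both sides of WT. It passed the threshold as higher under TPM scaling (0.67, limma adjusted p = 0.0416) and after the length correction (0.68, adjusted p = 0.0376). Under quantile normalization it did not (0.56, adjusted p = 0.110).

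Among capping proteins and tropomyosins, 1 of 6 was called: Add1, which encodes the membrane-skeleton protein adducin 1, rose from 0.07, 0.18 and 0.47 FPKM to 1.14, 1.52 and 0.73 FPKM (log2 difference 0.78, limma adjusted p = 0.0475). These values lie near the lowest level tested, and as no WT library reached 1 FPKM the direction was in part set by the filter here too. Eps8, a capping and bundling protein, gave −0.25 (limma adjusted p = 0.463), and the capping protein gene Capza2 gave 0.59 (limma adjusted p = 0.385).

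Of 12 tested myosin and cortex genes, 1 was higher and 2 were lower. Myo10, an unconventional myosin that links filaments to the spindle and to protrusions, rose from 1.21, 0.98 and 1.34 FPKM to 1.83, 5.45 and 4.22 FPKM (log2 difference 1.07, limma adjusted p = 0.0441). Myl12b, a regulatory light chain of non-muscle myosin II, fell from 42.1, 35.3 and 36.9 FPKM to 26.9, 7.18 and 9.05 FPKM (log2 difference −1.56, limma adjusted p = 0.0447). Anln, which encodes the contractile-ring scaffold anillin, fell from 19.3, 20.3 and 15.6 FPKM to 10.9, 10.7 and 8.28 FPKM (log2 difference −0.83, limma adjusted p = 0.0474). For Myl12b and Myo10 Lsm14b-KO replicate 1 was the library nearest to WT, whereas for Anln the Lsm14b-KO libraries lay together. The called falls of Anln and Myl12b depended on the scaling. For Anln the difference was −0.18 under TPM scaling (limma adjusted p = 0.638) and −0.53 under quantile normalization (adjusted p = 0.142), and only the length correction kept the call (−0.98, adjusted p = 0.0253). For Myl12b it was −0.92, −1.22 and −1.44 under TPM scaling, quantile normalization and the length correction, with limma adjusted p of 0.0679, 0.0806 and 0.0507.

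Several actin genes are known targets of serum response factor, whose binding motif is the CArG box, so promoters were searched for it on both strands. RefSeq promoters of GRCm38.p6, from 250 bases before to 50 after the start, were given for 7 of the 10 members, all but Actb, Spire1 and Tmod3, and 0 of the 7 held a CArG box. Of 81 genes of the pathway lists with an entry 6 held it: Actc1, Arpc4, Acta1, Rab11a, Myl6 and Actg1. These are counts of genes, in which a match in any promoter of the gene was enough. Counted by promoter instead, 535 of all 32851 (1.63%) held it, so this share is not a like measure for the gene counts. The match of Actg1, the called gene among them, is shown with its surroundings, 5′ to 3′ on the minus strand of GRCm38 (chr11:120348566-120348595); the capitals are the motif, which begins 90 bases before the start.
Actg1: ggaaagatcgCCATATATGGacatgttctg
A match of letters is no evidence of binding.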

How the data were processed

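RNA-Seq libraries of 20 GV-stage FGOs (3 WT, 3 Lsm14b-KO; groups and replicate numbers from the sample titles) had been amplified by Smart-seq2 and read as 150 bp pairs. Per the labels, the authors used TopHat2 2.0.13, Cufflinks 2.2.1, Cuffnorm and Cuffdiff with mm10 and deposited 1 FPKM value per gene and library. The labels name different library kits; the annotation and strandedness are not given in the sources used here. The deposited table also holds the authors' fold changes, p-values and q-values, which were not used. It holds no counts, so absolute depth is unknown and no count model was fitted; relative depth was estimated from genes of very low FPKM. FPKM sums were 1141324 to 1244182 in WT and 1029728, 564671 and 676656 in Lsm14b-KO replicates 1 to 3.

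FPKM values were transformed to log2(FPKM + 1), so differences of low genes are understated. The 6398 genes that reached 1 FPKM in any library were fitted by genotype with limma 3.58.1 (R 4.3.3; lmFit, eBayes with intensity trend), two-sided, with Benjamini-Hochberg adjustment over all tested genes and a threshold of 0.05. An exact permutation test of 3 against 3 cannot give a two-sided p below 0.10 and was not used. The fit was tested on simulated data. Alternatives were a pseudocount of 0.1, no filter, a stricter filter, TPM scaling, quantile normalization, a transcript length correction (loess, span 0.5; lengths for 6318 genes, 98.75%), no trend, a replicate block, and leaving out each library. The members and gene lists were chosen with earlier results of these data known. Genes were named by rule: the members, Lsm14b, every called gene of each list and, where fewer than 2 were called, the 2 of highest mean FPKM, and the nearest genes by correlation; exceptions are marked. Coordinates and transcripts were from GENCODE vM21 (GRCm38, the assembly of mm10), promoters from RefSeq, and copies were sought with blastn 2.17.0 at 95% identity over 200 bases.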

Additional observations from a re-analysis of the deposited data

How the results depend on the processing

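The count of called genes, 1383 as reported, was 720 without the filter and 321 to 2952 when 1 library was left out (321 without Lsm14b-KO replicate 3, 408, 426 and 537 without WT replicates 1, 2 and 3, 915 without Lsm14b-KO replicate 2 and 2952 without Lsm14b-KO replicate 1). Members called (1 in the analysis as reported) numbered 0 without the filter. They numbered 2 with at least 1 FPKM in all 3 libraries of a group, with quantile normalization and with no intensity trend. The genes called in all under these settings were 1582, 1275 and 1320, in that order. TPM scaling and the length correction each gave 3 members, with 1319 and 1394 genes called in all, beside 1383 as reported. Leaving out 1 library gave 0 to 4 members. Whether members or pathway list genes were called more often than other genes under any alternative was not tested. Pathway list genes called (8) numbered 0 without the filter, 15 with TPM scaling and 5 with no trend, and 0 to 21 when 1 library was left out. Whether replicate numbers mark a shared day or litter is not stated. Deviations of same-numbered libraries from their group means correlated at 0.19, −0.13 and 0.018, beside −0.28 to 0.31 for differently numbered ones. With 3 libraries per group these values cannot decide whether the libraries were paired. With the replicate block 1244 genes and 1 member were called.

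Signs turned from negative to positive with TPM scaling for Fmn2 (0.45), Actr2 (0.28), Arpc3 (0.18), Tmod3 (0.0901), Actl6a (0.19), Brk1 (0.20), Tmsb10 (0.67) and Eps8 (0.37), with quantile normalization for Fmn2 (0.0302), Actr2 (0.22), Arpc3 (0.0596), Brk1 (0.12) and Tmsb10 (0.56), and with the length correction for Arpc3 (0.13), Brk1 (0.0582) and Tmsb10 (0.68). Leaving out 1 library gave ranges that crossed 0 for Spire1 (−0.0807 to 0.64), Actr2 (−0.78 to 0.31), Arpc3 (−1.14 to 0.0677) and Tmsb10 (−0.31 to 0.33, with 0.0053 without WT replicate 1); the sign turned without Lsm14b-KO replicate 2 for Spire1, Arpc3 and Tmsb10 and without Lsm14b-KO replicate 1 for Actr2. The cause was not tested. Lsm14b was called in all 14 alternatives (adjusted p 0.00121 to 0.0274). Tmod3 and Add1 could not be tested under the stricter filter. With 3 libraries per genotype and no counts, the intervals of Actr2, Actr3, Arpc2, Arpc3 and Spire1 leave room for differences of more than 1 on the log2 scale.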
